A study of Mus musculus with 24 samples.

Results

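The comparison described here sets 3 libraries of primary mouse embryonic fibroblasts that lost both copies of Mlx (MlxKO) against 3 libraries of wild-type (WT) primary fibroblasts, which is 6 of the 24 RNA-seq libraries of the series. The members were every gene with at least 1 CPM (reads of a gene scaled to a common library size) in at least 3 of the 12 primary libraries, and 13101 of the 41710 genes in the primary table met this rule. The gene nearest the rule from above, Tomt, had 1.00 CPM in the library that decided its entry and the nearest from below, Gm38037, 0.998 CPM. The series also profiled fibroblasts without Myc (MycKO) and without both genes (DKO), each as primary cells and after immortalization with SV40 T-antigen.

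Fibroblasts came from pools of at least 6 embryos at about E14 to E16. The MlxKO, MycKO and DKO cells carried floxed alleles of Mlx, Myc or both together with a Cre recombinase that acts when 4-hydroxytamoxifen (4OHT) binds it, and excision was induced with 500 nM 4OHT, whereas the vehicle was ethanol. The paper gives the name WT to fibroblasts of these floxed, Cre-bearing lines whose Mlx and Myc stayed intact. It used a single such line as control in most cases. The sources used here do not state which treatment the primary WT libraries had. They also do not state whether these came from the same embryo pool as the MlxKO cells. Mlx loss, exposure to 4OHT and active Cre, and the embryo pool therefore cannot be told apart in MlxKO against WT. DKO and MycKO cells were both exposed to 4OHT. They came from separate floxed strains with embryos pooled by group, so Mlx loss and the embryo pool cannot be told apart there either. The study calls the libraries of a group biological replicates made from triplicate RNAs, without saying whether these came from separate cultures or embryo pools, and p-values measure the spread between these libraries only.

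Mlx is a basic helix-loop-helix leucine zipper protein that dimerizes with MondoA (encoded by Mlxip) or ChREBP (encoded by Mlxipl). These dimers enter the nucleus when glucose-6-phosphate and related sugars are abundant and bind carbohydrate response elements, which are tandem E-box-like sequences. Their best known targets are Txnip and Arrdc4, arrestin-domain proteins that restrain glucose uptake. Mlx also pairs with Mxd1, Mxd4 and Mnt, members of the Max network that oppose Myc.

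The promoters of Txnip and Arrdc4 are shown because these genes were among those that fell most and because the stretch upstream of each holds an E-box-like sequence of the kind that Mlx dimers are known to bind. Each run gives the 250 bases before the transcription start in GRCm39, read along the gene's own strand, with the matched letters in capitals. In Txnip, at chr3:96465017-96465266 on the plus strand, the capitals mark a pair of CACGNG sequences with 5 bases between them, beginning 79 bases before the start. In Arrdc4, at chr7:68399000-68399249 on the minus strand, they mark CACGTG, beginning 180 bases before the start.
Txnip: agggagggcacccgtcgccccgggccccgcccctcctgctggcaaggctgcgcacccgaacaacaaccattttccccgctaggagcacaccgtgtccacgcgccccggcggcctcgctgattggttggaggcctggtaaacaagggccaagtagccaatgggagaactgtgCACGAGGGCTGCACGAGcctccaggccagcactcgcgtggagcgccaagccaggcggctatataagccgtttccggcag
Arrdc4: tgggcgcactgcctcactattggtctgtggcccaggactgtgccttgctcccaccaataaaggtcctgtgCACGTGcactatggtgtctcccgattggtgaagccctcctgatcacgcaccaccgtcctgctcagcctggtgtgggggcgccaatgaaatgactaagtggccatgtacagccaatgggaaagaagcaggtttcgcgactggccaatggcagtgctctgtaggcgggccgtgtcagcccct

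The paired sequence, on either strand, was present in 7 of 12624 promoters of tested protein-coding genes (0.0554%), counting from 250 bases before to 50 after the start. The single E-box CACGTG, which reads the same on both strands and can lie inside the paired sequence, was present in 9.97% of these promoters. Among genes that rose it was present in 8.32% of 481 promoters, and among genes that fell in 8.72% of 665. The shares in both sets of changed genes were therefore below that of all tested promoters. These counts describe letters in a window and say nothing of binding.

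Mlx itself (chr11:100978080-100983043) was measured at 26.0, 20.5 and 24.5 CPM in the WT libraries and at 13.0, 13.5 and 14 CPM in the MlxKO libraries. The groups did not overlap, and MlxKO kept 56.9% of the WT level, a log2 fold change of -0.76 (SE 0.11, adjusted p = 4.05e-04 by limma). Cre removes only internal exons of Mlx, and the deposited values are sums over the gene, so reads from the remaining exons are still counted and the residual level does not measure intact transcript. Here and below, log2 fold changes are on the log2(CPM + 1) scale, which understates the change of genes with low values.

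The gene of MondoA was measured at about WT level, and that of ChREBP was too low to test. Mlxip, encoding MondoA, was at 62.9 ± 2.05 CPM in WT and 57.6 ± 7.0 CPM in MlxKO (SD, n = 3), a log2 difference of -0.13 with a 95% interval of -0.30 to 0.04. Mlxipl, encoding ChREBP, lay between 0 and 0.120 CPM in the 6 libraries, below the 0.154 to 0.179 CPM that 3 reads are worth, and was not tested. Myc differed by -0.10 (95% interval -0.25 to 0.05) and its partner Max by 0.05 (-0.11 to 0.21).

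Of the 12 tested genes of the extended Myc network, 1 rose and 2 fell. Besides Mlx, the gene that fell was Mycl, a Myc paralog, at 7.0 ± 0.80 CPM in WT and 3.85 ± 0.43 CPM in MlxKO (-0.72, adjusted p = 0.0013). Mxd4, a partner of Max and of Mlx that opposes Myc, rose from 83.2 to 99.0 CPM (0.25, adjusted p = 0.022). The 9 others, including Mnt, Mxi1, Mxd1 and Mga, did not pass the threshold.

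Txnip (chr3:96465267-96469201) showed the largest fall of any gene tested on the log2(CPM + 1) scale. It was at 122, 116 and 129 CPM in the WT libraries and at 6.88, 6.40 and 5.03 CPM in the MlxKO libraries. The lowest WT library was far above the highest MlxKO library, and the MlxKO mean was 4.98% of the WT mean (log2 fold change -4.13, SE 0.09, adjusted p = 2.58e-14). Arrdc4 (chr7:68386742-68398999) was at 18.3, 19.3 and 21.5 CPM in WT and at 1.76, 1.97 and 2.72 CPM in MlxKO, again without overlap, which is 10.9% of the WT level (-2.73, SE 0.14, adjusted p = 2.22e-09). The other tested arrestin-domain genes were not called, with log2 differences of -0.14 for Arrdc1, -0.09 for Arrdc3 and 0.01 for Arrdc2.

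**Figure D1:**
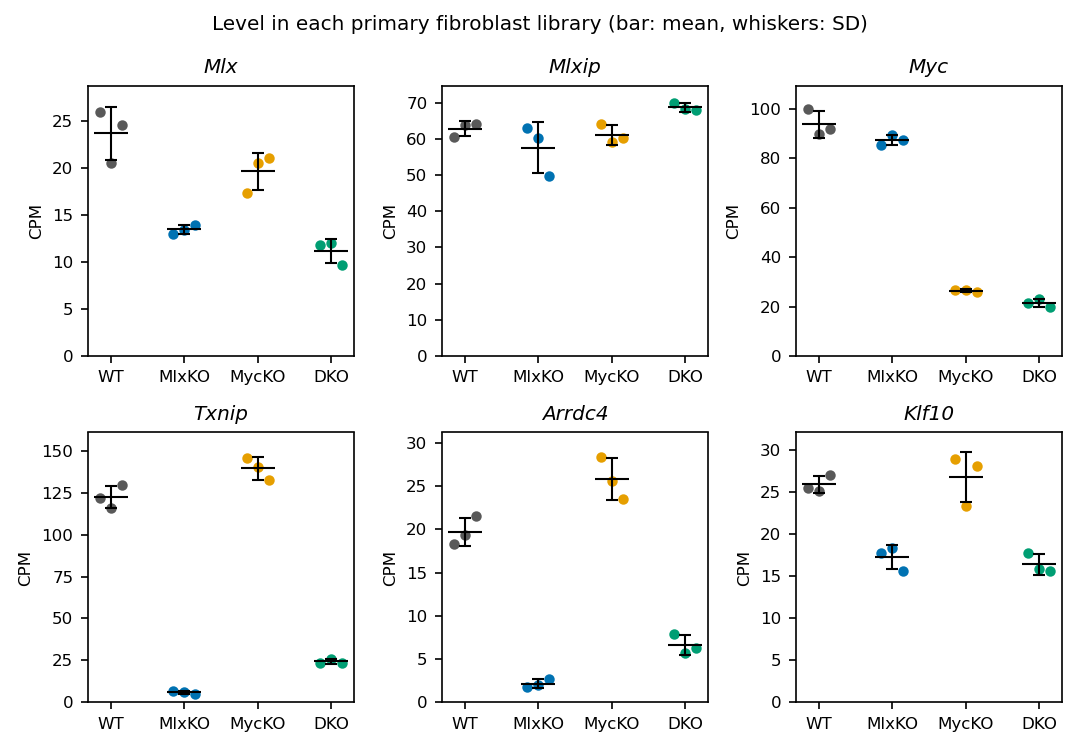
Level (CPM, linear axis from 0) of Mlx, its partner Mlxip, Myc, and the Mlx targets Txnip, Arrdc4 and Klf10 in each primary library, by genotype. Points are libraries, bars are means and whiskers are SDs of 3 libraries. Txnip and Arrdc4 sit near 0 in MlxKO, and remain at 24.5 and 6.62 CPM on average in DKO against 139 and 25.8 CPM in MycKO.

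Among 21 tested genes known as MondoA or ChREBP targets, 3 fell and none rose, a share of 14.3% beside 8.88% of all genes. The third was Klf10, a zinc-finger repressor induced by glucose, at 25.9 ± 1.03 CPM in WT and 17.2 ± 1.44 in MlxKO (log2 fold change -0.56, adjusted p = 0.0018). The lipogenic members were close to WT, with differences of -0.03 for Fasn, 0.03 for Acaca and 0.06 for Scd1, and the fructose kinase Khk at -0.02. The median of the 21 genes was -0.02. Fgf21, a hormone induced by ChREBP in liver, was at 0.853 ± 0.570 CPM in WT and 1.89 ± 0.176 CPM in MlxKO (0.69, adjusted p = 0.077).

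Across all genes, 1164 passed the threshold of an adjusted p under 0.05, which is 8.88% of the 13101 tested. Of these 491 were higher in MlxKO (3.75% of genes tested) and 673 lower (5.14%). Most changes were small. Called genes had a median absolute log2 change of 0.42, and 53 genes changed by at least 1, of which 15 rose and 38 fell. The median over all tested genes was 0.0015. The libraries of the groups did not overlap for 1145 of the called genes and for 28.3% of all genes tested.

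Library totals were 16692411 to 17887312 reads in WT and 15986856 to 18502811 in MlxKO. The share of genes called was 5.46% in the lowest quartile of mean level and 12.5% in the highest. Of the WT libraries WT3 stood apart. Its correlation with the MlxKO libraries (0.989 to 0.991, across genes on the log2 scale) came close to that with the other WT libraries (0.992 to 0.993), and its mitochondrial read share, 2.88%, lay within the MlxKO range of 2.65 to 2.99% while the other WT libraries were at 2.13 and 2.22%. For 682 of the 1164 called genes, the WT3 value lay on the MlxKO side of both other WT libraries. Without WT3 the count was 1466, whereas it was 627 without WT1, 630 without WT2 and 738 without the library MlxKO6.

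The direction split depended on scaling. With the authors' scaling, 42.2% of the called genes were higher, against 53.8% when recovered reads were divided by library totals, a change that moved the median of all genes from 0.0015 to 0.029.

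After Txnip, the largest falls included Pgr, the progesterone receptor, and Greb1, both textbook targets of the estrogen receptor. Pgr (chr9:8899830-8968612) was at 11.7, 13.3 and 12.0 CPM in WT and at 0.426, 1.08 and 0.462 CPM in MlxKO. The MlxKO level was 5.31% of WT, with no overlap (log2 fold change -3.03, SE 0.21, adjusted p = 1.35e-07). Greb1 (chr12:16720616-16851015) was at 11.3, 12.4 and 14.8 CPM in WT and at 2.4, 2.39 and 1.03 CPM in MlxKO, also without overlap (-2.27, SE 0.19, adjusted p = 1.58e-06).

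Of 9 tested genes of the estrogen receptor pathway, 2 fell and 1 rose. The gene that rose was Gper1, a membrane receptor for estrogen, from 3.81 ± 0.569 to 10.6 ± 1.09 CPM (1.27, adjusted p = 1.02e-04). The nuclear receptor Esr1 was at 26.7 ± 1.36 CPM in WT and 21.1 ± 3.51 CPM in MlxKO (-0.33, adjusted p = 0.054). 4OHT is itself a ligand of the estrogen receptor, and the study describes its withdrawal for some days before experiments. Pgr and Greb1 were low in every primary group exposed to it, with means of 0.307 and 2.27 CPM in MycKO and 0.930 and 1.55 CPM in DKO, so for these genes exposure and genotype cannot be told apart in MlxKO against WT.

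The falls of at least 1 on the log2 scale also held receptors and signals of other kinds. Dkk2, a secreted Wnt antagonist, was at 62.0, 60.8 and 69.8 CPM in WT and at 13.8, 15.1 and 13.8 CPM in MlxKO (-2.10, adjusted p = 3.02e-11). Lgr6, a receptor for R-spondins, stood at 13.4% of WT (-2.12, adjusted p = 1.01e-07). Both groups were tight and far apart for these genes. Col10a1, a short-chain collagen of hypertrophic cartilage, was at 540, 511 and 698 CPM in WT and at 145, 139 and 136 CPM in MlxKO (-2.04, adjusted p = 3.99e-10).

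Lower values were found for Tagap, encoding a GTPase-activating protein, at 9.73% of WT, the organic anion transporter Slco5a1 at 16.8%, the cation channel Trpc6 at 29.1% and Ctla2a, a cysteine protease inhibitor with a near-identical neighbour that may share reads, at 32.6%. Zbtb8b, a zinc-finger gene, was at 2.71, 3.20 and 3.92 CPM in WT and at 0.107, 0 and 0.0513 CPM in MlxKO, where every value was below that of 3 reads. All 5 passed the threshold without overlap between groups. Several large falls were also low in MycKO, which likewise had 4OHT and is compared with the same WT libraries, with means of 1.57 CPM for Lgr6, 0.0621 CPM for Tagap, 0.0886 CPM for Zbtb8b, 1.28 CPM for Slco5a1 and 0.703 CPM for Krt8.

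**Figure D2:**
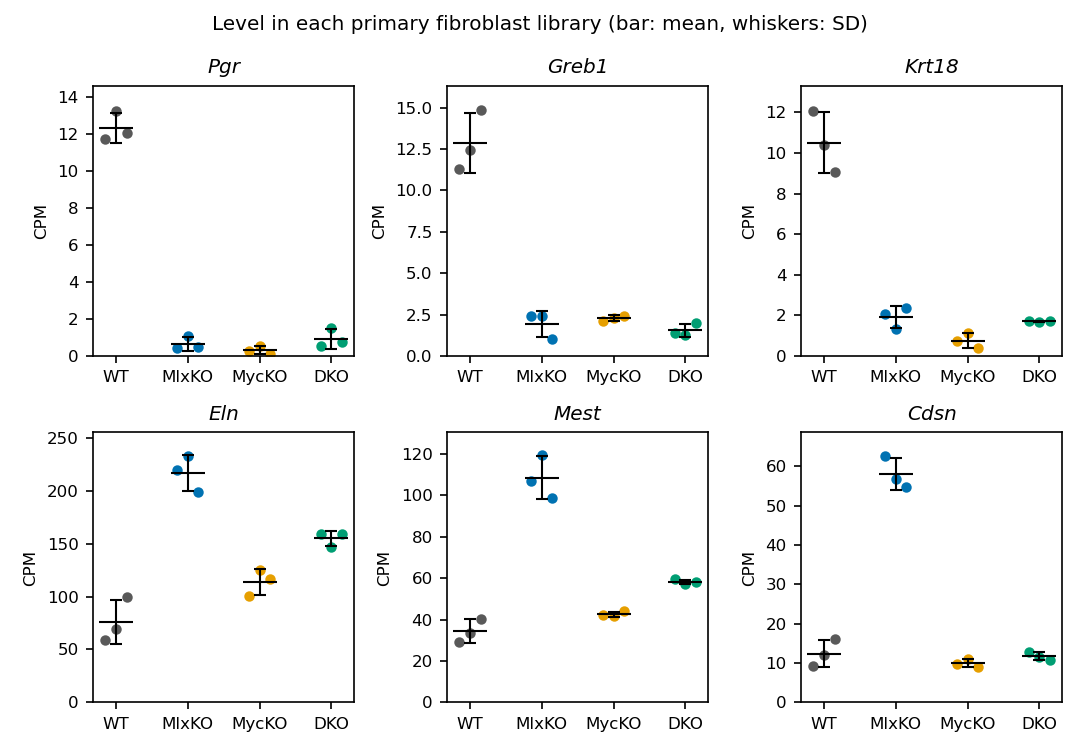
Level (CPM, linear axis from 0) in each primary library of genes with large falls (Pgr, Greb1, Krt18) and large rises (Eln, Mest, Cdsn) in MlxKO against WT, with means and SDs of 3 libraries. Pgr, Greb1 and Krt18 are low in all 3 knockout genotypes, whereas the level of Cdsn is high in MlxKO alone, at 58.1 CPM on average against 9.98 to 12.4 CPM in the other groups.

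Among the rises, Cdsn, which encodes the desmosome-associated protein corneodesmosin of the skin, was the largest. It was at 9.20, 11.9 and 16 CPM in WT and at 62.6, 56.8 and 54.7 CPM in MlxKO, 4.69-fold higher on the means and without overlap (log2 fold change 2.17, SE 0.14, adjusted p = 1.01e-07). Of the 8 tested epidermal and cornified envelope genes it alone rose, and involucrin, Ivl, fell from 2.50 to 1.13 CPM (-0.71, adjusted p = 0.030).

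Mest, an imprinted gene expressed from the paternal allele, was at 29.3, 33.7 and 40.4 CPM in WT and at 107, 120 and 98.9 CPM in MlxKO (1.63, SE 0.10, adjusted p = 2.36e-08). Every MlxKO library was more than 2 times any WT library. Of 24 tested genes of the imprinted growth network, 3 rose and none fell, the others being Igf2 (464 to 577 CPM, 0.32) and Impact (99.9 to 132 CPM, 0.40). H19 and Dlk1 differed by 0.08 and -0.01, and the median of the list was 0.10. The share called was 12.5% of the list, beside 8.88% of all genes.

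Eln, encoding elastin, was at 59.3, 69.7 and 99.2 CPM in WT and at 219, 232 and 199 CPM in MlxKO (1.53, SE 0.13, adjusted p = 2.19e-06). The highest WT value was that of WT3. The same order held for Aspn, a small leucine-rich proteoglycan, at 111, 127 and 210 CPM in WT and 292, 319 and 326 CPM in MlxKO (1.11, adjusted p = 3.68e-04), and for Ptn, the growth factor pleiotrophin, at 101, 116 and 157 CPM in WT and 270, 247 and 280 CPM in MlxKO (1.11, adjusted p = 1.05e-05).

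The remaining large rises were between 2.08-fold and 2.98-fold on the means. They comprised the secreted protein gene Ccdc3, the actin-associated Gas2, the signalling regulators Arhgap20 and Rgs4, the calcium channel subunit Cacna1h, the transcription factor Klf15, the cytochrome P450 gene Cyp4b1, the sulfotransferase Gal3st1 and the angiotensin receptor Agtr2. Agtr2 was at 4.01, 5.54 and 6.08 CPM in WT and 11.4, 11.2 and 11.3 CPM in MlxKO (1.00, adjusted p = 3.66e-04). Cacna1h had the closest groups of these genes, with 7.01 CPM in WT3 and 8.01 CPM in MlxKO7.

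Most genes of cholesterol synthesis rose. Of 22 tested enzymes of this pathway 14 rose and none fell, and the median of the list was 0.34 beside 0.0015 for all genes. Fdft1, which commits farnesyl diphosphate to sterols, went from 81.2 ± 9.05 to 113 ± 9.0 CPM (0.47, adjusted p = 0.0016). Lss, lanosterol synthase, went from 67.9 ± 2.97 to 91.1 ± 3.84 CPM (0.42, adjusted p = 0.0013) and Hmgcs1, which makes HMG-CoA, from 179 ± 11.9 to 238 ± 9.64 CPM (0.41, adjusted p = 0.0021). The largest changes of the list were those of Tm7sf2 (0.68), Nsdhl (0.50) and Idi1 (0.50).

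The count of called sterol synthesis enzymes was 8 without WT1 and 15 without WT3. In the uptake and regulation of sterols, 1 of 22 tested genes rose and 2 fell, a share of 13.6% beside 8.88% of all genes. Insig1, which retains the SREBP precursor in the endoplasmic reticulum, rose (0.29), while the cholesterol exporter Abca1 (-0.52) and the esterifying enzyme Soat1 (-0.35) fell. Srebf2 and Srebf1, which encode the SREBP factors, differed by 0.01 and 0.03, neither of them called.

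Of 23 tested genes of fatty acid synthesis and desaturation, 3 rose and none fell, a share of 13% beside 8.88% of all genes. The clearest was Acss2, which makes acetyl-CoA from acetate, from 7.57 ± 0.270 to 13.2 ± 0.746 CPM (0.73, adjusted p = 5.1e-04). The others were the desaturase Scd2 (0.26) and the phosphatidate phosphatase Lpin1 (0.42). In leave-one-out fits this count was between 1, without MlxKO6, WT1 or WT2, and 4, without WT3.

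Glycolytic genes were mostly lower. Of 25 tested genes of glucose uptake and glycolysis, 9 fell and 1 rose, and the median was -0.26. The lactate exporter Slc16a3 went from 81.6 ± 13.8 to 45.3 ± 1.86 CPM (-0.82, adjusted p = 3.5e-04), Pgk1 from 622 ± 57.1 to 467 ± 15.3 CPM (-0.41, adjusted p = 0.0016), and Eno1 changed by -0.29, Pfkp by -0.32 and Ldha by -0.30. Gapdh (-0.37, adjusted p = 0.040) and Tpi1 (-0.36, adjusted p = 0.036) lost their calls when reads were divided by library totals, and Gapdh has processed pseudogenes that may take reads.

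The gene that rose was the enolase isoform Eno2 (0.41, adjusted p = 0.013). The main glucose transporter of fibroblasts, Slc2a1, was at 126 ± 4.56 CPM in WT and 126 ± 9.23 in MlxKO. Without WT1 3 genes of the list were called, and without WT3 12. None of the 8 genes of the pentose phosphate pathway was called, and their median was -0.12.

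Genes of cell division were lower. Of 45 tested genes of mitosis and spindle 23 fell and none rose, and of 48 genes of DNA replication 11 fell and none rose, with medians of -0.29 and -0.22. Most members without a call also lay below 0, with 43 of 45 and 46 of 48 negative in all. Plk1, a mitotic kinase, went from 92.1 ± 8.94 to 62.2 ± 0.183 CPM (-0.55, adjusted p = 1.4e-04), and Cdk1, the kinase that drives entry into mitosis, from 92.5 ± 4.57 to 72.4 ± 4.10 CPM (-0.35, adjusted p = 0.0075).

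Mki67, the proliferation antigen Ki-67, changed by -0.45 (adjusted p = 0.0069), and Rrm2, a subunit of ribonucleotide reductase, by -0.52 (adjusted p = 1.9e-04). The replicative helicase genes Mcm2 to Mcm6 changed by -0.25 to -0.49. The mitosis count was 12 without WT1 and 20 without WT3, and the replication count 4 without MlxKO5, WT1 or WT2 and 14 without WT3. Bulk RNA cannot separate fewer dividing cells from less of these transcripts in each cell.

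The promoter of Cdk1 is shown for this group because it holds the cell cycle homology region, TTTGAA, a sequence known from promoters of mitotic genes. The run gives the 250 bases before the start in GRCm39, at chr10:69188769-69189018 on the minus strand, with the sequence in capitals 45 bases before the start.
Cdk1: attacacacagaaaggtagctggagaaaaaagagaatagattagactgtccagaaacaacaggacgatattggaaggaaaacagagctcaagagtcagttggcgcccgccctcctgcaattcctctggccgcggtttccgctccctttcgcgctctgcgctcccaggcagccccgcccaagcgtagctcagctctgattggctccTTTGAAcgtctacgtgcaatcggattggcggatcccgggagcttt

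TTTGAA on either strand was present in 22 of the 45 promoters of the mitosis list (48.9%), against 13.6% of all 12624 promoters. It was present in 10 of the 23 members that fell, in 8.33% of the promoters of the replication list and in 16.8% of the promoters of all genes that fell. Members with and without a call held it.

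Of 10 CDK inhibitors and Rb family genes, 1 rose, Cdkn2b, encoding p15, from 33.2 to 48.0 CPM (0.52, adjusted p = 0.0013), while Cdkn1a, encoding p21, differed by 0.14 without a call. Of 26 genes of the p53 pathway 2 rose, Ddit4l (0.65) and Trp53inp1 (0.40), and 1 was called without MlxKO5, WT1 or WT2. None of 79 tested cytosolic ribosomal proteins was called by limma (median -0.05), and edgeR called 1 and DESeq2 4. Of 41 ribosome biogenesis genes 4 fell, with adjusted p-values of 0.021 to 0.047, and none was called without MlxKO6, MlxKO7, WT1 or WT2. The share called was 10% of the CDK inhibitor list, 7.69% of the p53 list and 9.76% of the ribosome biogenesis list, beside 8.88% of all genes.

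Calls in stress and metabolic lists are set beside the 8.88% of all genes called, 3.75% higher and 5.14% lower. The share was 10% of the ATF4 list, 9.8% of the lysosome list, 16% of the NRF2 list and 2.63% of the respiratory chain. Of 30 genes of the ATF4 amino acid response 3 rose, led by the neutral amino acid transporter Slc1a4, from 74.2 ± 4.27 to 106 ± 3.98 CPM (0.52, adjusted p = 9e-05), and Trib3 (0.48). Of 51 lysosome genes 5 rose, by 0.19 to 0.32, including 3 subunits of the proton pump. Of 25 genes of the NRF2 antioxidant response 1 rose and 3 fell, among the latter Txn1 (-0.34), the thioredoxin that Txnip binds and inhibits, and its reductase Txnrd1 (-0.23). Txn1 lost its call in 8 of 16 alternatives. In leave-one-out fits the calls of the ATF4 list numbered 2, without MlxKO5, MlxKO6 or WT1, to 7, without WT3. Those of the lysosome list numbered 2, without MlxKO6, MlxKO7 or WT2, to 8, without WT3, and those of the NRF2 list 1, without MlxKO7, WT1 or WT2, to 5, without WT3. The respiratory chain had 1 call in 38 genes, Cox7a2 (-0.30).

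Matrix genes moved in both directions. Of 44 tested matricellular and remodelling genes 15 rose and 8 fell. Besides Eln and Aspn, rises included Ccn3 (112 ± 36.2 to 199 ± 13.3 CPM, 0.87), the proteoglycan Fmod (74.5 ± 5.44 to 107 ± 7.40 CPM, 0.51) and the metalloprotease Mmp23 (0.61). The falls were led by the metalloproteases Mmp9, from 44.9 ± 9.99 to 16.6 ± 0.92 CPM (-1.36, adjusted p = 4.2e-06), and Mmp10, from 5.11 to 1.74 CPM (-1.15). Tenascin C, Tnc fell as well (-0.54, adjusted p = 1.9e-04).

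Of 27 collagen chains, 4 rose and 1, Col10a1, fell, and 3 were called without WT1. Col3a1 rose by 0.56 (adjusted p = 0.0013) and Col18a1, the source of endostatin, by 0.70, whereas Col1a1 and Col1a2, the chains of type I collagen, differed by 0.05 and 0.17 without a call.

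All 23 tested contractile genes had a log2 difference below 0, and 9 of them fell (median -0.29). Des, encoding desmin, went from 81.5 ± 4.50 to 36.8 ± 5.55 CPM (-1.13, adjusted p = 1.6e-06), Ankrd1 from 49.5 ± 5.34 to 25.5 ± 2.26 CPM (-0.93) and skeletal alpha-actin, Acta1, from 50.8 to 30.2 CPM (-0.73). The transcription factor Srf fell by 0.35 and Tagln by 0.58, while Acta2, smooth muscle actin, was at 3955 ± 55.3 CPM in WT and 3476 ± 209 in MlxKO (-0.19, adjusted p = 0.102). Without WT1 6 genes were called, and without WT3 14.

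Of 32 genes of TGF-beta and BMP signalling, 10 fell and 2 rose, and the 12 calls became 6 without WT1 or WT2 and 7 without MlxKO6. Inhba, which encodes the subunit of activin A, went from 621 ± 7.87 to 373 ± 30.4 CPM (-0.74, adjusted p = 7.9e-06). Its antagonist Fst changed by -0.53. The ligand Tgfb1 fell (-0.39) and Tgfb2 rose (0.40). In the IGF system 4 of 13 genes rose, Igfbp3 (0.57), Igfbp5 (0.37), Igf1 (0.33) and Igf2 (0.32), and 2 were called without MlxKO5, MlxKO6, WT1 or WT2. Of 35 Hox genes 2 rose, Hoxa13 (0.51) and Hoxd13 (0.48), and neither kept its call without MlxKO6, MlxKO7, WT1 or WT2. The share called was 5.71% of the Hox list, beside 8.88% of all genes.

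Secreted immune genes split by gene. Of 29 chemokines and cytokines 6 rose and 7 fell, and the 13 calls became 5 without WT2 and 7 without WT1 or MlxKO7. Il1rn, the interleukin-1 receptor antagonist, went from 121 ± 1.33 to 159 ± 2.23 CPM (0.39, adjusted p = 0.0020) and Cxcl5, a neutrophil attractant, from 43.1 to 69.8 CPM (0.67), whereas Cxcl14 went from 49.7 ± 1.26 to 34.8 ± 1.20 CPM (-0.50, adjusted p = 0.0020). Of 21 complement and acute phase genes 5 fell and none rose, with a median of -0.32, and 3 were called without MlxKO6, MlxKO7 or WT2. C3 went from 11.1 ± 1.94 to 6.20 ± 1.11 CPM (-0.74), and Saa3 and haptoglobin, Hp, were at 26.1% and 38.7% of WT. Of 43 interferon-stimulated genes 3 rose and 2 fell, with a median of -0.07, and 1 was called without MlxKO7 or WT2 and 3 without MlxKO5 or WT1. The share called was 11.6% of the interferon list, beside 8.88% of all genes.

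Macrophage markers moved with part of these values. The 18 markers of the list, 17 of them tested, summed to 777, 617 and 396 CPM in the WT libraries. In the MlxKO libraries they summed to 420, 521 and 471 CPM, so that the groups overlapped and WT3 was the lowest library. None of the 17 was called, and their median was -0.34, close to that of the complement list. The part of these cells in the immune genes was not tested.

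The fibroblast label was checked against 12 markers, all of which were tested, with Col1a1 at 17260 ± 188 CPM in WT and 17917 ± 996 in MlxKO. Of these 2 rose, Col3a1 and Pdgfrb (0.27), and 1 fell, Thy1 (-0.38). Erythroid markers summed to at most 0.410 CPM in any of the 6 libraries, and of the skeletal muscle markers only Pax3 passed the filter.

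Of the 9 epithelial markers, 3 passed the filter and all 3 fell. Krt18 was at 12.1, 10.4 and 9.06 CPM in WT and at 2.08, 1.32 and 2.36 CPM in MlxKO (-1.99, adjusted p = 3.80e-06), and its partner keratin Krt8 at 7.0, 5.97 and 7.01 CPM in WT and 0.640, 1.67 and 1.80 CPM in MlxKO (-1.73, adjusted p = 1.02e-04). The groups were separate for both. Krt19 changed by -0.77. The defining markers Epcam and Cdh1 were near 0 in WT and MlxKO alike, with means of at most 0.166 CPM, which is less than 3 reads in most libraries.

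Kdr, a VEGF receptor, was at 12.6, 12.8 and 12.8 CPM in WT and at 2.24, 2.99 and 2.88 CPM in MlxKO (-1.90, adjusted p = 5.53e-07). Flt1, the other VEGF receptor of the endothelial list, changed by -0.37. Of the 10 markers of that list 4 were tested, and the 2 besides Kdr and Flt1 lay above 0 without a call. The defining endothelial markers Pecam1 and Cdh5 had means of at most 0.207 CPM in either group. Of the 6 mesothelial markers 2 fell, Krt19 and mesothelin, Msln (24.1 ± 2.27 to 13.8 ± 0.928 CPM, -0.76). Of the neural and glial markers Tubb3 fell (-0.47) and Sox10 rose (0.43).

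Cells with and without Mlx were also compared in the absence of Myc, by DKO against MycKO. This compares other libraries, although the fit estimates the spread from all 4 genotypes. The groups came from separate embryo pools, and the sex-linked markers summed to 228 to 308 CPM in MycKO and 549 to 564 CPM in DKO. Of the 13101 genes, 2818 were called there (21.5%), 1383 higher (10.6%) and 1435 lower (11%). Of the 1164 genes called in MlxKO against WT, 342 were called in the same direction (29.4%), 215 in the opposite direction (18.5%) and 607 were not called. The sign of the difference was the same for 57.6% of the 1164 genes.

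Txnip fell there from 139 ± 6.73 CPM in MycKO to 24.5 ± 1.42 CPM in DKO (-2.46, adjusted p = 1.4e-11), and Arrdc4 from 25.8 ± 2.45 to 6.62 ± 1.12 CPM (-1.82, adjusted p = 5.9e-08). Mlx fell by 0.76, as in MlxKO against WT, and Klf10 by 0.67. Of the 15 largest falls of MlxKO against WT, 4 also fell in DKO against MycKO (Txnip, Arrdc4, Col10a1 and Kdr), 3 rose (Dkk2, Ctla2a and Krt18) and 8 were not called. Most of the latter were low in MycKO, as for Tagap at 0.0621 CPM and Zbtb8b at 0.0886 CPM, where a further fall was not detectable. Of the 15 largest rises, 7 also rose, 3 fell (Gper1, Cyp4b1 and Rgs4) and 5 were not called.

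By list, 29 of the 45 mitosis genes fell and none rose in DKO against MycKO. Of the 48 replication genes 22 fell and none rose, so both lists were lower in both primary comparisons. Sterol synthesis had 9 falls and no rise (median -0.21) where MlxKO against WT had 14 rises. Glycolysis had 15 rises and 1 fall (median 0.29), contractile genes 9 rises and no fall (0.21), and complement genes 15 rises and no fall (0.90), with each median on the other side of 0 from that in MlxKO against WT. Macrophage markers moved with the complement list, as 14 of 17 tested rose and none fell (median 0.93). Sums over the 18 listed markers were 66.1 to 101 CPM in MycKO and 141 to 314 CPM in DKO. The part of these cells in the change was not tested. Interferon-stimulated genes had 37 rises and 1 fall (0.78).

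The interaction, which is the change in DKO against MycKO minus that in MlxKO against WT, was called for 1774 genes (13.5%, split into 7.47% positive and 6.07% negative), among them 564 of the 1164 called in MlxKO against WT (48.5%). These genes were chosen on the MlxKO against WT difference, which enters the interaction with a minus sign, so this share and the signs below are in part set by that choice and are given as a description. Its largest positive values among these were those of Saa3 (3.61), Pgr (3.57), Hp (3.42), Dkk2 (3.29) and Gdf10 (3.0). Dkk2 was at 64.2 ± 4.89 CPM in WT, 14.2 ± 0.728 in MlxKO, 21.9 ± 0.62 in MycKO and 51.5 ± 1.23 in DKO. The largest negative values were those of Eif2s3y (-3.02), Lgr5 (-2.99), Cyp4b1 (-2.97), Syt13 (-2.66) and Adh7 (-2.35). Eif2s3y is Y-linked and was at 4.12 CPM in DKO against 23.7 to 32.4 CPM in the other groups; the share of male embryos in each pool is not stated.

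In immortalized cells, MlxKO against WT gave 5014 calls among 12880 genes (38.9%), 19.1% higher and 19.9% lower. The paper's supplement describes the immortalized WT control cells as kept without 4OHT. The sources used here do not state whether they came from the same floxed line as the MlxKO cells. Mlx loss, exposure to 4OHT and active Cre, and the embryo line therefore cannot be told apart in this comparison. Division by library totals gave 3671 higher and 1584 lower there, with the median of all genes at 0.16, so that the direction of small changes in immortalized cells depends on the scaling. The immortalized library WT4 stood apart, with a correlation of 0.943 to 0.950 with the other WT libraries, which had 0.992 with each other, and values are therefore also given without it. The 5 tested sex-linked markers had a median of 1.55, with 1 rise and 1 fall, or 2.66 with 4 rises and 1 fall without WT4. Of the 1110 genes called in primary cells that were tested there, 146 were called in the same direction (13.2%), 284 in the opposite direction (25.6%) and 680 were not called, and without WT4 179 (16.1%) and 474 (42.7%) were called in the same and the opposite direction. Txnip fell from 56.3 to 3.83 CPM (-3.52, adjusted p = 9.1e-06), Arrdc4 from 11.4 to 0.198 CPM (-3.30, adjusted p = 1e-05) and Mlx from 23.0 to 13.8 CPM (-0.71, adjusted p = 0.0047). These 3 genes fell without WT4 as well (-3.85, -3.63 and -0.78).

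Cdsn, opposite to primary cells, was at 91.5, 93.4 and 42.7 CPM in immortalized WT, the last being WT4, and at 4.02 to 5.92 CPM in MlxKO (-3.55, and -3.92 without WT4). Mest was at 1696, 1712 and 115 CPM in WT and at 128, 101 and 107 CPM in MlxKO (-2.63, adjusted p = 0.016), so that WT4 lay within the MlxKO range and the fall rested on the other WT libraries. Interferon-stimulated genes had 33 rises and 1 fall among 43 (median 2.42), and without WT4 35 rises and 1 fall (median 1.11). WT4 was far below the other WT libraries for Ifit3, an interferon-induced gene, at 10.6 CPM against 213 and 257 CPM. Sterol synthesis had 4 rises and 10 falls, or 6 and 8 without WT4. Mitosis genes, lower in both primary comparisons, had 9 rises and 5 falls (median 0.01), or 16 and 3 without WT4 (median 0.20). Replication genes had 9 rises and 9 falls (median 0.04), or 15 and 8 without WT4 (median 0.19).

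**Figure D3:**
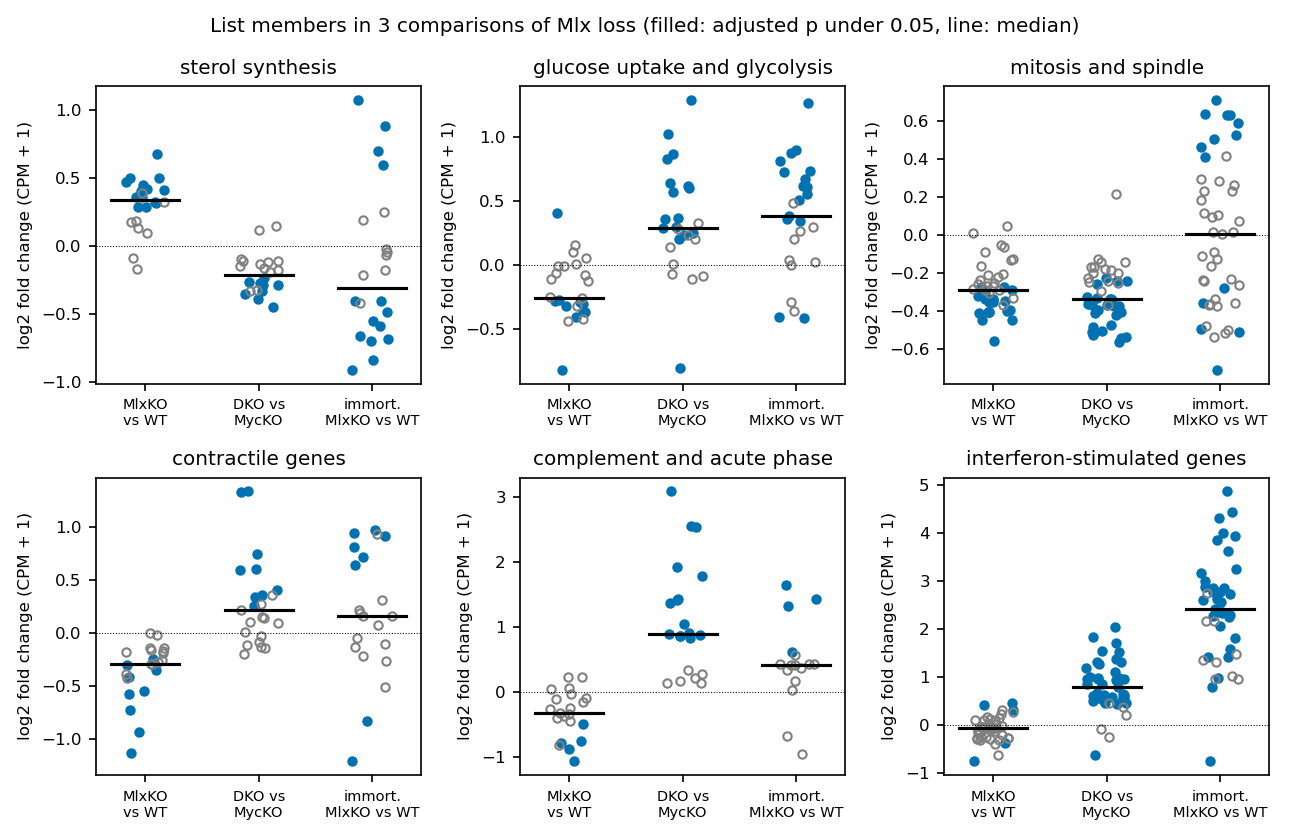
Log2 fold change on the log2(CPM + 1) scale of each tested member of 6 gene lists in primary MlxKO against WT, primary DKO against MycKO and immortalized MlxKO against WT. Filled points passed an adjusted p under 0.05, open points did not, and lines are medians. Sterol synthesis lies above 0 in MlxKO against WT (median 0.34) and below it in the other comparisons, glycolysis and contractile genes do the reverse, and mitosis is below 0 in both primary comparisons.

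Of the genes called in MlxKO against WT, 342 were called in the same direction in DKO against MycKO. In immortalized MlxKO against WT 19.1% of all genes were called higher and 19.9% lower. Genes called in the same direction in all 3 comparisons of Mlx loss numbered 43 of the 13101 tested in primary cells. Whether this number exceeds that expected from these shares was not tested. Of the 43 genes, 24 were lower and 19 higher. Ordered by the change in primary MlxKO against WT, Txnip, Arrdc4 and Mlx were the lowest and Ptn the highest, with Ptn at 1.11, 1.49 and 1.79 in the 3 comparisons. Rrm2 (-0.52, -0.79 and -0.52), Mcm6 and Txnrd1 were also among them. Without the immortalized library WT4 the number was 52, of which 40 were among the 43. Txnrd1 was then no longer called in immortalized cells (-0.24, adjusted p = 0.073 by limma). Klf11, a relative of Klf10, was also among the 43 (-0.49, -0.50 and -0.76) and was picked out after its values were seen.

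Around the Mlx locus, 3 of 57 tested genes within 1 Mb were called in primary MlxKO against WT (5.26%), namely Mlx, Krt19 and Etv4, and 10 of 171 within 5 Mb (5.85%). Both shares were below the 8.88% of all genes.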

How the data were processed

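Poly-A RNA of the 24 libraries was made into strand-specific libraries and sequenced on an Illumina NovaSeq, and the authors mapped reads to mouse GRCm39 (mm39 in the submitters' processing notes) with CLC Genomics Workbench and summarised them per gene. The deposited values are a signal headed CPM, in 1 table for primary and 1 for immortalized cells, with the libraries not pooled. They were already scaled between libraries by the authors, and the sources used here do not name the method or the strand setting. The values were whole multiples of what 1 read is worth (100% within 0.01 reads), and equalled CPM divided by edgeR's TMM factors.

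Genes reaching 1 CPM in 3 or more of the 12 libraries of a table were tested with limma 3.58.1 (trend, R 4.3.3) on log2(CPM + 1), with the 4 genotypes of a table in 1 fit and Benjamini-Hochberg adjustment over all genes tested. A gene was called at an adjusted p under 0.05. The script was tested on simulated data. edgeR 4.0.16 and DESeq2 1.42.0 were run on recovered reads as alternatives, beside other pseudocounts, filters, scalings, a GC and length correction and leaving out each library. Named genes were the Mlx network genes, the 15 largest rises and falls without overlap (predicted genes left out), up to 6 called members of each list with uncalled members where needed, and the 5 largest interactions in each direction. The comparison and the gene lists were chosen with earlier results of these data known. Promoters were read from GRCm39 at the starts of GENCODE canonical transcripts. At 15986856 to 20966163 reads per primary library, 3 reads are 0.149 to 0.196 CPM; such floors cover counting error only. A few list members are not reported here by name.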

Additional observations from a re-analysis of the deposited data

Results flagged for a closer look

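The interaction term of the limma fit is the log2 change in DKO against MycKO minus that in MlxKO against WT. Mlx loss and the embryo pool cannot be told apart in it. This term passed an adjusted p under 0.05 for the genes below. They were chosen for their change in MlxKO against WT, which the term subtracts, so its sign is in large part set by that choice. Among the large falls the term was positive, at 1.66 for Txnip, 0.90 for Arrdc4, 3.57 for Pgr, 1.90 for Greb1, 2.03 for Lgr6, 3.29 for Dkk2, 1.03 for Col10a1, 2.12 for Tagap, 2.06 for Zbtb8b, 2.65 for Krt18, 1.28 for Kdr, 2.13 for Slco5a1, 1.54 for Krt8, 2.39 for Ctla2a and 1.43 for Trpc6. Several of these were low in MycKO, with means of 0.307 CPM for Pgr, 0.751 CPM for Krt18 and 0.703 CPM for Krt8.

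Among the large rises the term was negative, at -1.95 for Cdsn, -1.19 for Mest, -1.09 for Eln, -1.67 for Ccdc3, -2.02 for Gper1, -0.83 for Aspn, -1.11 for Cacna1h, -2.97 for Cyp4b1, -2.21 for Rgs4 and -0.99 for Gal3st1. Of the genes with the largest terms among all those called in MlxKO against WT, Saa3 had 3.61, Hp 3.42 and Gdf10 3.0, and Eif2s3y -3.02, Lgr5 -2.99, Syt13 -2.66 and Adh7 -2.35.

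Of the 15 largest rises, 13 were tested in immortalized MlxKO against WT, where 6 were called in the opposite direction and 1 in the same. Of the 15 largest falls, 9 were tested, with 2 opposite and 2 the same. These calls used all immortalized WT libraries, and all of them stayed without WT4. Without WT4 the rises Eln (-1.84), Ccdc3 (-1.10), Gper1 (-0.72) and Cacna1h (-0.60) were called in the opposite direction as well. So were the falls Dkk2 (1.33) and Col10a1 (0.48), while the calls in the same direction remained those of Ptn, Txnip and Arrdc4. The difference between the cell states was not tested. Cdsn (-3.55), Aspn (-1.18), Arhgap20 (-2.12) and Rgs4 (-1.48) rose in primary and fell in immortalized cells, as did Gas2 (-1.46) and Mest (-2.63), whose immortalized groups overlapped through the library WT4. Krt18 (0.72) and Kdr (0.79) fell in primary and rose in immortalized cells.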

How the results depend on the processing

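The count of 1164 genes in primary MlxKO against WT was 887 to 1492 under the other pseudocount, filters, scalings and tools, but 2040 with the GC and length correction and 53 with a log2 fold change of at least 1, which by its construction keeps fewer genes. Leaving out single libraries gave 627 to 1466. The share of calls that were higher, 42.2%, was 53.8% with library totals, 28.3% with the fold minimum and 36.4 to 43.4% in leave-one-out fits. The 190 list members called became 291 with the GC and length correction, 17 with the fold minimum and 109 to 223 in leave-one-out fits. Of 147 named genes 144 were called, 34 with the fold minimum, and 84 kept their call under every other alternative. With the fold minimum DKO against MycKO gave 336 calls, the interaction 510 and immortalized MlxKO against WT 866. Immortalized cells gave 3254 calls with the GC and length correction, 2884 without MlxKO6 and 3180 without MlxKO7, in a leave-one-out range of 2884 to 6033. With library totals more called genes were higher than lower, and likewise in DKO against MycKO (1504 and 1281, against 1383 and 1435). No called named gene changed sign, whereas Max, which was not called, ranged from -0.03 to 0.11. Beyond the fold minimum and the leave-one-out fits, the cause of these changes was not tested. No paired analysis was possible because the table columns carry library numbers that the labels do not tie to replicate numbers. At this depth, changes of genes near 1 CPM were often not detectable.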

Other observations

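Some fixed lists were not described above for primary MlxKO against WT. The share called was 11.1% of circadian genes, 13.3% of serine and folate genes and 12.5% of adipocyte genes, beside 8.88% of all genes. It was 6.25% of cartilage and bone genes and 20% of sex-linked genes. Of 18 tested circadian clock genes 2 rose, the repressors Per3 and Cry1, with a list median of 0.14, and none was called without MlxKO5, MlxKO6 or WT1. Of 15 genes of serine synthesis and folate metabolism 1 rose and 1 fell, and of 16 adipocyte genes 1 rose, Plin4, and 1 fell, Plin2, both coats of lipid droplets. Of 16 cartilage and bone genes 1 fell, Col10a1, while Col2a1, the main collagen of cartilage, and the proteoglycan Acan differed by 0.06 and -0.04. Of 5 sex-linked genes 1 rose, Eif2s3y (0.31, adjusted p = 0.047 by limma), which was not called in any of the leave-one-out fits.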
